A study of Rattus norvegicus with 30 samples.

Results

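Tsc22d3, Tsc22d1, Crispld2 and Maob are 4 of the 9999 gene names with values in a time course of rat bone marrow mesenchymal stem cells (BMSCs), the stromal cells that can form bone, fat and cartilage cells. They were taken by gene name and grouped as glucocorticoid-responsive and TSC22 genes, and their measured values in these 30 samples were known when they were chosen. All 4 were among the 4363 genes with enough reads to be tested. Where a gene name stood on more than 1 line of a sample's values, the lines were summed, which among the 4 applied to Crispld2. By the threshold used, Maob differed from undifferentiated cells in 0 of the 9 induced groups and the other 3 genes in at least 1. This is a description, since these comparisons were in view when the genes were chosen. Whether the label holds for Maob in these cells was not tested.

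The BMSCs came from the femur and tibia marrow of 3 female Sprague Dawley rats aged 3 weeks and were used at passage 2. Undifferentiated cells (CON, 0 h) were compared with cells kept for 3, 12 or 72 h in commercial osteogenic (OS), adipogenic (AD) or chondrogenic (CH) medium, and RNA was sequenced from 3 samples in each of the 10 groups. Each sample pooled 3 cultures, and no source used here ties a sample to 1 animal, so the tests measure the spread between these pools, which may be technical. The composition of the media is not given in the sources used here, so whether and at which dose each medium held a glucocorticoid could not be stated. In bulk RNA, fewer cells of a type and less RNA per cell cannot be told apart.

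Glucocorticoids are steroid hormones that bind the glucocorticoid receptor, which then enters the nucleus, binds DNA and raises or lowers the transcription of its target genes. Synthetic glucocorticoids are common ingredients of media that drive stromal cells to bone, fat or cartilage fates. Tsc22d3 encodes glucocorticoid-induced leucine zipper (GILZ), a small protein that restrains inflammatory transcription factors and is a classical target of the receptor. Tsc22d1, another member of the TSC22 leucine zipper family, was first found as a gene stimulated by transforming growth factor beta (TGF-beta). Crispld2 encodes a secreted protein with a CAP domain and LCCL domains that is known as a glucocorticoid target in airway and stromal cells, and Maob encodes monoamine oxidase B of the outer mitochondrial membrane, which breaks down amines and has been described as glucocorticoid-inducible.

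The start regions of the 4 genes were read from RefSeq (GRCr8) as windows of 300 bases, from 250 before to 50 after the start of transcription, and 7 windows were found: 3 for Tsc22d3, 2 for Tsc22d1 and 1 each for Crispld2 and Maob. They are given because a value per gene does not tell alternative starts apart. Each window was searched on both strands for the glucocorticoid receptor half-site AGAACA, the palindrome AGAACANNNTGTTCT that holds 2 half-sites, the cyclic AMP response element TGACGTCA and the TATA box core TATAAA. Among all 33469 windows of this length, 20.7% held the half-site, 0.0149% the palindrome, 1.83% the cyclic AMP element and 14.2% the TATA core. Of the 7 windows, 2 held any of these letters, and both are printed with the matching letters in capitals. The Tsc22d3 window at chrX:109009985-109010284 (minus strand) held 1 TATA core, and the Crispld2 window at chr19:64978706-64979005 (plus strand) held 1 half-site, read here as its reverse complement.
Tsc22d3: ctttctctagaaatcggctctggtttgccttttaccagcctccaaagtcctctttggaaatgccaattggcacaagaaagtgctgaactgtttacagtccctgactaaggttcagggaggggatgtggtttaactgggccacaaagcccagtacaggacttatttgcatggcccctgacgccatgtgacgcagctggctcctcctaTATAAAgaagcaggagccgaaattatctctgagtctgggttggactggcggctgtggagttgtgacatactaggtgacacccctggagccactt
Crispld2: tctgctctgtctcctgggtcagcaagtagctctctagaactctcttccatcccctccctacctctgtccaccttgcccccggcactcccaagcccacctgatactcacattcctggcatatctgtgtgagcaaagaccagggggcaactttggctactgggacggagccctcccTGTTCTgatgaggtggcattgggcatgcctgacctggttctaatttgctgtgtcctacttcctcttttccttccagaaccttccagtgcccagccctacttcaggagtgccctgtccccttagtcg
A match is a description of these letters only, and the absence of one says nothing about binding outside or inside the window.

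Values are reads scaled to a fixed library total (CPM), with no correction for gene length, so levels are compared between samples of 1 gene and not between genes. The libraries held 3899609 to 9046719 reads, and 3 reads, taken as the floor of detection, were worth 0.332 to 0.769 CPM. These limits cover counting error only. Differences were taken after adding 1 CPM and converting to log2, a scale that makes changes of low genes look smaller, with the standard error (SE) of a model over all 30 samples. A difference was called when it was at least 1 on this scale and its adjusted p was under 0.05. Some libraries stood apart from the other 2 of their group: 74 genes of AD 72 h replicate 3, 24 of AD 12 h replicate 1, 18 of OS 3 h replicate 3 and 13 each of AD 72 h replicates 1 and 2 were over 2 log2 units from the rest of the group, against 0 to 2 genes in every other library. The labels were checked against lineage markers. The 4 chondrogenic markers summed to 561 to 1515 CPM in CH and 46.6 to 50.8 CPM in CON, mostly from Sox9, which was also called higher at OS 3 h (1.05, 100.5 against 48.1 CPM), while Acan and Col2a1 had at most 3 reads in any library. The adipogenic markers summed to 1163 to 3221 CPM at AD 72 h and 664 to 778 CPM in CON, mostly from Lpl, but they were below CON at AD 3 h (562 to 609 CPM) and reached 1041 to 1146 CPM at OS 72 h. Plin1 was called higher at AD 72 h (1.57), Pparg was not called in AD (0.34 at 72 h) but at OS 72 h (1.601), and Cebpa was -0.33 at AD 72 h and not called in any group. Both calls rested on few reads, from at most 2 in any CON library. Plin1 had 8 to 22 at AD 72 h and Pparg 12 to 16 at OS 72 h. The osteogenic markers with values summed to only 1.37 to 4.86 CPM in OS and 2.58 to 2.86 CPM in CON, with Sp7, Alpl and Spp1 at or below 3 reads in every CON and OS 72 h library, and their highest sums were those of CH 72 h (202 to 320 CPM), where Ibsp, a bone matrix protein gene, was 6.10 above CON on the log2 scale. In OS, Ibsp, the 1 tested osteogenic marker, was called at 0 of the 3 times. Stromal markers (4 of 5 with values) summed to 16084 to 16891 CPM in CON, 4110 to 4778 at AD 72 h, 9106 to 9584 at CH 72 h and 15632 to 17096 at OS 72 h. Of these, Thy1 was called lower at 72 h in OS, AD and CH (-1.12, -4.24 and -1.76), Itgb1 was called lower at AD 72 h (-1.03), and Cd44 was called higher at OS 3 h, OS 12 h and AD 3 h (1.49, 1.003 and 1.03). Macrophage and blood cell markers (3 of 12 with values) stayed at or below 4.08 CPM, with Lyz2 called higher at AD 72 h (1.35, from 0 reads in each CON library to 7 to 13 reads). Endothelial markers (3 of 5) stayed at or below 7.08 CPM, with Tek called higher at OS 3 h, OS 72 h and AD 3 h (1.33, 2.12 and 1.68) and Vwf called lower at 12 h in OS, AD and CH (-1.68, -1.23 and -1.09). The part of these marker differences in the results of the 4 genes was not tested.

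**Figure D1:**
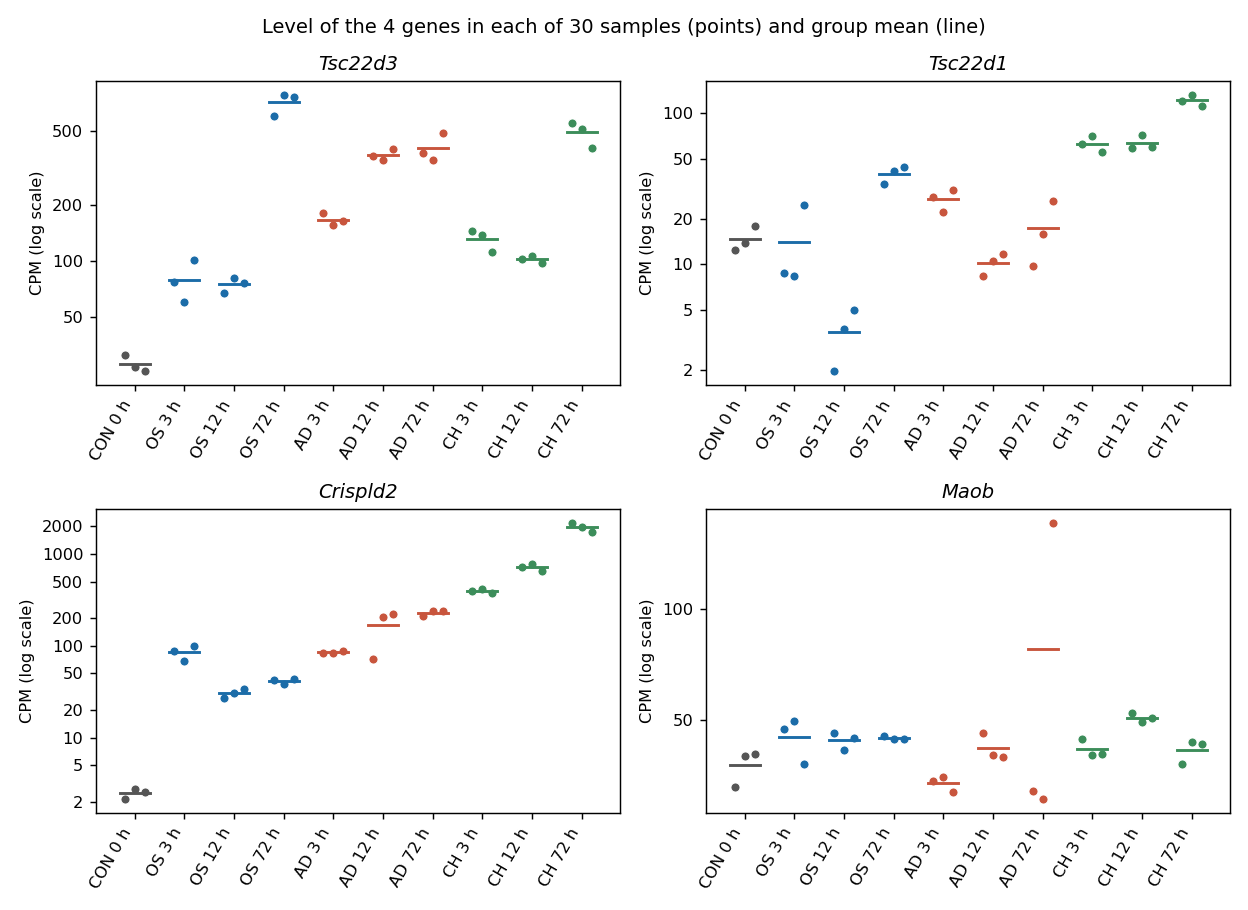
Level of each gene in CPM on a logarithmic axis for the 30 samples, as points, with the mean of each group as a line, and with OS, AD and CH at 3, 12 and 72 h next to CON at 0 h. Tsc22d3 and Crispld2 lie above CON in every induced sample, Tsc22d1 lies on both sides of it, and Maob is flat except for 1 AD 72 h sample at 171 CPM.

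Tsc22d3, the leucine zipper gene, was higher than in undifferentiated cells in every induced sample. In CON its 3 samples had 31.1, 26.9 and 25.3 CPM (27.8 ± 2.98, SD, n = 3). In AD they had 181, 156 and 163 CPM at 3 h, 369, 348 and 402 at 12 h, then 379, 350 and 488 at 72 h. The adipogenic samples at 12 h and 72 h overlapped, and both lay above those at 3 h. In OS the samples had 76.9, 60.2 and 100.4 CPM at 3 h, 66.9, 81.2 and 76.0 at 12 h, then 599, 784 and 766 at 72 h. In CH they had 145, 138 and 111 CPM at 3 h, 103, 107 and 97.7 at 12 h, then 554, 515 and 406 at 72 h. In these 2 lineages the early groups sat at a few times the CON level and the 72 h groups far above it. From low to high the order of the group means was CON, OS 12 h, OS 3 h, CH 12 h, CH 3 h, AD 3 h, AD 12 h, AD 72 h, CH 72 h and OS 72 h. Neighbours whose samples overlapped in this order were OS 12 h and OS 3 h, OS 3 h and CH 12 h, AD 12 h and AD 72 h, and AD 72 h and CH 72 h. Against CON, the log2 difference ranged from 1.40 (SE 0.15) at OS 12 h to 4.63 (SE 0.15) at OS 72 h, that is 2.69-fold to 25.8-fold in CPM. These contrasts with CON were in view when the gene was chosen and are given as a description without a test.

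Crispld2, the secreted CAP-domain protein, was low in CON, higher in every induced sample and highest in CH. Its CON samples had 2.15, 2.79 and 2.58 CPM, from 15 to 20 reads each. In CH the samples had 395, 416 and 375 CPM at 3 h, 711, 783 and 643 at 12 h, then 2188, 1945 and 1738 at 72 h. Each chondrogenic time point lay above the one before it with no overlap. In AD the samples had 84.0, 84.2 and 86.8 CPM at 3 h, 72.1, 207 and 221 at 12 h, then 211, 238 and 237 at 72 h. The low value at 12 h was that of replicate 1, one of the libraries that stood apart, in which Lpl, the lipoprotein lipase gene, had 253 CPM against 1093 and 1028 CPM in the other 2. Without this library the log2 difference of Crispld2 from AD 3 h to AD 12 h was 1.32 in place of 0.80. In OS the samples had 86.8, 68.4 and 100.3 CPM at 3 h, 27.3, 30.5 and 34.0 at 12 h, then 42.1, 38.1 and 43.2 at 72 h, so the osteogenic level was highest at the first time point. The order of the means was CON, OS 12 h, OS 72 h, then OS 3 h and AD 3 h at nearly the same mean, AD 12 h, AD 72 h, CH 3 h, CH 12 h and CH 72 h. Overlap between neighbours was limited to OS 3 h with AD 3 h, AD 3 h with AD 12 h, and AD 12 h with AD 72 h. Against CON, described without a test for the same reason, the log2 difference ran from 3.17 (SE 0.23) at OS 12 h to 9.12 (SE 0.23) at CH 72 h, which was 12.2-fold to 781-fold in CPM.

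Crispld2 stood on 2 lines of each sample's values, and the files used here do not say how they differ. The second line held a mean of 1.08% to 5.54% of the summed CPM in every group except AD 3 h, where it held 11.7% ± 1.10 (SD, n = 3). The first line alone gave log2 differences from CON of 3.19 (SE 0.22) at OS 12 h to 9.15 (SE 0.22) at CH 72 h. The second line had 0, 1 and 1 reads in the CON samples, under the floor. Alone, it was not called against CON at OS 12 h (0.43) or OS 72 h (0.76), and was called higher in every other group (2.02 to 4.45). From 12 to 72 h in CH it differed by -0.21, where the first line rose by 1.49. From 3 to 12 h in AD it differed by -0.44, and the first line by 0.91.

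Tsc22d1, the TGF-beta-stimulated family member, was called higher than CON throughout CH and at OS 72 h, as Tsc22d3 was. It parted from Tsc22d3 elsewhere, being called lower at OS 12 h and not called at OS 3 h or in AD. Its CON samples had 12.5, 13.8 and 18.05 CPM (14.8 ± 2.92, SD, n = 3). In CH the samples had 62.2, 70.5 and 55.6 CPM at 3 h, 59.1, 71.99 and 60.2 at 12 h, then 121, 132 and 112 at 72 h. All 9 chondrogenic samples were above every other sample of the series. In OS they had 8.77, 8.37 and 24.8 CPM at 3 h, 1.96, 3.74 and 5.03 at 12 h, then 34.0, 41.3 and 43.8 at 72 h. The 12 h osteogenic samples, at 13 to 33 reads, were the lowest of the series, and the high sample at 3 h was replicate 3, another library that stood apart. In AD the samples had 27.9, 22.3 and 31.1 CPM at 3 h, 8.34, 10.5 and 11.7 at 12 h, then 9.79, 16.0 and 26.1 at 72 h. AD 3 h lay above CON, AD 12 h just below it and AD 72 h on both sides of it. From low to high the means ran OS 12 h, AD 12 h, OS 3 h, CON, AD 72 h, AD 3 h, OS 72 h, CH 3 h, CH 12 h and CH 72 h, and each group from AD 12 h to AD 3 h overlapped its neighbour, as did CH 3 h and CH 12 h. Against CON, again as a description, the log2 difference was -1.83 (SE 0.30) at OS 12 h and 2.97 (SE 0.30) at CH 72 h at its extremes. At AD 72 h it was 0.13 (SE 0.30), and it turned to -0.20 without replicate 3. At OS 3 h it was -0.23, and it turned to 0.03 without replicate 2 and to -0.70 without replicate 3, the library that stood apart.

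Maob, the monoamine oxidase gene, stayed near its CON level in 26 of the 27 induced samples. CON had 32.9, 39.8 and 40.3 CPM (37.7 ± 4.13, SD, n = 3). In OS the samples had 47.3, 49.8 and 37.9 CPM at 3 h, 45.9, 41.4 and 44.6 at 12 h, then 45.4, 44.5 and 44.3 at 72 h. In CH they had 44.4, 40.1 and 40.4 CPM at 3 h, 52.1, 49.4 and 50.5 at 12 h, then 38.0, 43.6 and 43.1 at 72 h. Most of these samples were slightly above the CON samples, and CH 12 h was the highest of these groups. In AD they had 34.2, 34.9 and 31.97 CPM at 3 h, 46.1, 40.1 and 39.6 at 12 h, then 32.05, 30.5 and 171 at 72 h. The sample at 171 CPM, from 1080 reads, was AD 72 h replicate 3, the library with the most genes far from its group, in which Lpl had 3216 CPM against 1160 and 1387 CPM in replicates 1 and 2. The log2 difference from CON lay between -0.15 at AD 3 h and 0.55 at AD 72 h (SE 0.32), and the value at AD 72 h was -0.26 (SE 0.13) without replicate 3. With edgeR on the read counts it was 1.22 with all samples, past the threshold. Whether Maob responds to a glucocorticoid in these cells was not tested, since the composition of the media is not given.

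**Figure D2:**
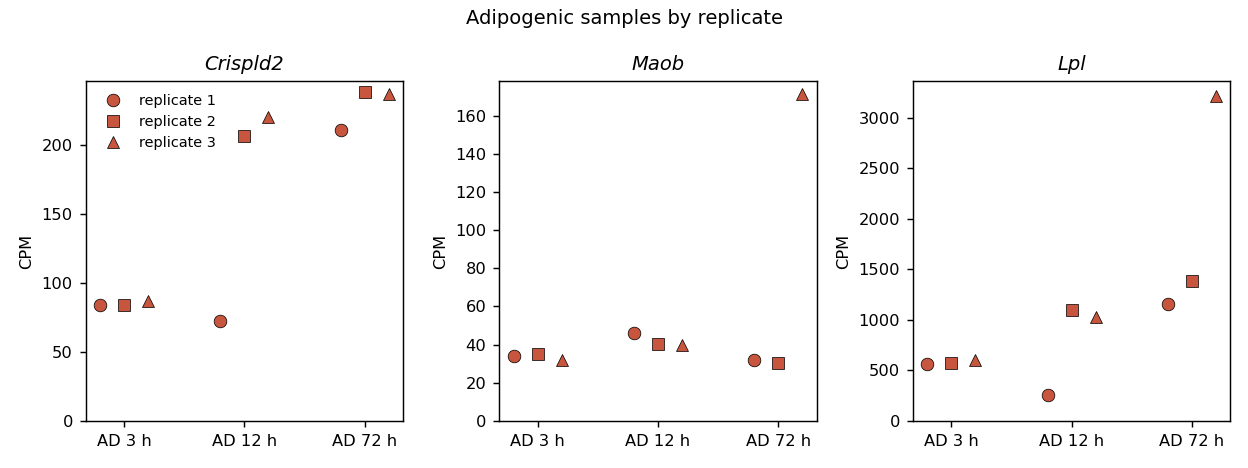
CPM of Crispld2, Maob and the lipoprotein lipase gene Lpl in the 9 AD samples, with 1 marker shape per replicate number, which names a sample and does not pair time points. AD 12 h replicate 1 is low for Crispld2 (72.1 CPM) and Lpl (253 CPM), and AD 72 h replicate 3 is high for Maob (171 CPM) and Lpl (3216 CPM).

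The calls against CON were set beside those of all 4363 genes, where the 9 comparisons share the same 3 CON samples and used the contrasts by which the genes were known, so nothing is read from the counts. In OS, 2 of the 4 genes were called higher at 3 h (11.7% of all genes), 2 at 12 h (14.7%) and 3 at 72 h (7.2%), and the counts called lower were 0 (6.67%), 1 (7.15%) and 0 (5.29%). In AD, 2 were called higher at 3 h (12.4%), 2 at 12 h (8.14%) and 2 at 72 h (6.19%), and 0 were called lower at each time (6.42%, 5.55% and 9.08%). In CH, 3 were called higher at 3 h (13.1%), 3 at 12 h (9.44%) and 3 at 72 h (11.6%), and 0 were called lower at each time (4.88%, 5% and 6.37%). By gene, Tsc22d3 and Crispld2 were called higher in 9 of 9 comparisons. Tsc22d1 was called higher in 4 (OS 72 h and the 3 CH groups) and lower in 1 (OS 12 h), and Maob in 0. Scaling by median ratios in place of total reads moved the median log2 difference of all genes by -0.26 to 0.17 in these comparisons, and changed the share of calls that were higher from 63.7% to 47.3% at OS 3 h, 67.2% to 46.6% at OS 12 h, 57.6% to 48.3% at OS 72 h, 65.9% to 50.3% at AD 3 h, 59.5% to 41.7% at AD 12 h, 40.5% to 52.0% at AD 72 h, 72.9% to 53.3% at CH 3 h and 65.4% to 46.1% at CH 12 h. With edgeR the share was 45.1%, 39.0% and 48.4% in OS at 3, 12 and 72 h, 47.5%, 43.6% and 48.8% in AD, and 50.5%, 43.9% and 58.4% in CH, from 64.6% for the last. With quantile normalization it was between 44.4% and 56.2% in the 9 comparisons. Median-ratio scaling ended no call of the 4 genes against CON, while quantile normalization ended that of Tsc22d3 at OS 12 h (0.96).

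**Figure D3:**
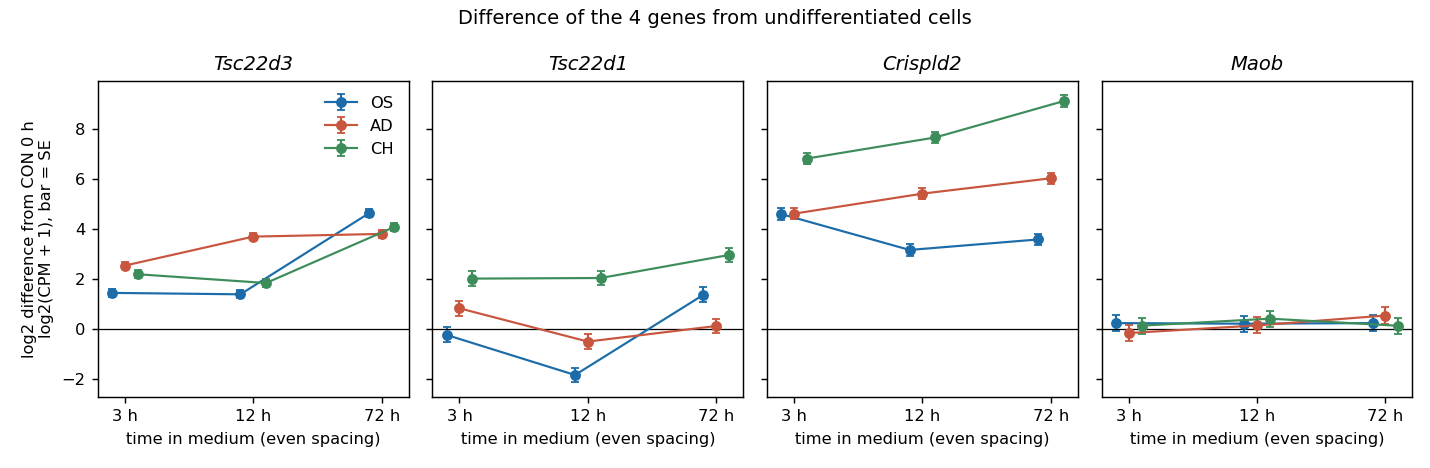
Log2 difference from CON 0 h on the log2(CPM + 1) scale for each gene by lineage, with time in medium on an evenly spaced axis and bars for the SE. Tsc22d3 and Crispld2 are above 0 at all points, Tsc22d1 is at -1.83 at OS 12 h and at 2.97 at CH 72 h, and Maob stays between -0.15 and 0.55.

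The lineages were compared in pairs at each time, in contrasts that do not use CON but use induced samples that were also in view when the genes were chosen. Of the 4 genes, 2 were called between OS and AD at 3 h (7.66% of all genes), 3 at 12 h (13.2%) and 2 at 72 h (13.7%). Between OS and CH the counts were 2 at 3 h (7.31%), 2 at 12 h (16%) and 2 at 72 h (19.6%). Between CH and AD they were 2 at 3 h (9.35%), 3 at 12 h (13.6%) and 2 at 72 h (25.5%). Median-ratio scaling moved the share of calls that were higher from 67.1% to 41.7% for OS against AD at 72 h and from 64.7% to 52.5% for CH against AD at 72 h, with a shift of -0.27 in the median of all genes for the former, and quantile normalization moved it from 30.7% to 43.4% for OS against CH at 3 h and to 55.3% and 53.5% for the 2 comparisons with AD at 72 h. With edgeR the share went from 53.1% to 37.4% for OS against AD at 12 h and from 55.6% to 42.1% for OS against CH at 12 h, and was 44.4% and 52.0% for OS and CH against AD at 72 h.

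Crispld2 ran in the order CH above AD above OS at 12 and 72 h. CH exceeded AD by 2.20 at 3 h (SE 0.23, limma adjusted p = 7.23e-09), 2.25 at 12 h (adjusted p = 3.22e-09) and 3.09 at 72 h (adjusted p = 1.36e-12), or 4.65-, 4.28- and 8.55-fold in CPM. OS did not differ detectably from AD at 3 h (-0.01, 95% interval -0.48 to 0.45, adjusted p = 0.994). OS was lower than AD at 12 h (-2.25) and 72 h (-2.45), and lower than CH at the 3 times (-2.22, -4.50 and -5.53), with adjusted p of 1.22e-08 or less in each of these 5. At 72 h the CH mean was 47.6 times that of OS. Taken apart, the second line of Crispld2 was lower in OS than AD at 3 h (-1.30), while the first line differed by 0.10.

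Tsc22d1 also differed in every pair of lineages, with CH highest at each time. CH was 2.32-fold above AD at 3 h (1.19, SE 0.30, adjusted p = 0.00374), 6.27-fold at 12 h (2.54, adjusted p = 5.25e-08) and 7.02-fold at 72 h (2.84, adjusted p = 2.58e-09). CH was above OS by 4.49-fold, 17.8-fold and 3.06-fold, with adjusted p of 1.16e-06, 7.3e-12 and 6.35e-05, and the first of these was 7.32-fold without OS 3 h replicate 3. OS was lower than AD at 12 h (-1.34, adjusted p = 0.000711), but higher than AD at 72 h (1.25, adjusted p = 0.0012), so the order of these 2 lineages turned. OS was also lower than AD at 3 h (-1.06, adjusted p = 0.0112), with overlapping samples. That call was lost without AD 3 h replicate 3 (-0.96), OS 3 h replicate 1 (-0.84) or OS 3 h replicate 2 (-0.81), with quantile normalization (-0.99), with edgeR (-0.92) and in a fit on the 6 samples alone (-1.06), while without OS 3 h replicate 3 the mean of OS went from 1.94-fold to 3.16-fold below that of AD (-1.54). The call at 72 h fell to 0.92 without AD 72 h replicate 1 and with median-ratio scaling, and to 0.91 with edgeR.

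Tsc22d3 differed between lineages mainly at 12 h, when AD was ahead. OS was 5-fold lower than AD at 12 h (-2.31, SE 0.15, adjusted p = 7.73e-13) and CH was 3.65-fold lower (-1.86, adjusted p = 5.6e-11), with no overlap. At 3 h OS was 2.1-fold lower than AD (-1.09, adjusted p = 4.03e-06), which fell to -0.91 without OS 3 h replicate 2. By 72 h the differences were under 1 in size: OS exceeded AD by 0.82 (adjusted p = 8.09e-05) and CH by 0.54 (adjusted p = 0.00523), and CH differed from AD by 0.28 (95% interval -0.04 to 0.60, adjusted p = 0.137). The lineage with the highest mean was therefore AD at 3 and 12 h and OS at 72 h, with no overlap between the samples of these 2 lineages at any time.

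Maob was called in 0 of the 9 pairs of lineages. Its differences lay between -0.41 for CH against AD at 72 h (95% interval -1.07 to 0.25) and 0.40 for OS against AD at 3 h (95% interval -0.26 to 1.06), with adjusted p of 0.305 to 0.909. Without AD 72 h replicate 3, OS was above AD at 72 h by 0.50 (SE 0.13 in place of 0.32, adjusted p = 0.00332) and CH by 0.40 (adjusted p = 0.0144), both under the size asked for, whereas edgeR with all samples gave -1.13 and -1.15, past the threshold. The model shares 1 estimate of the spread over all groups, so AD 72 h replicate 3 also widened the Maob intervals at the earlier times.

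**Figure D4:**
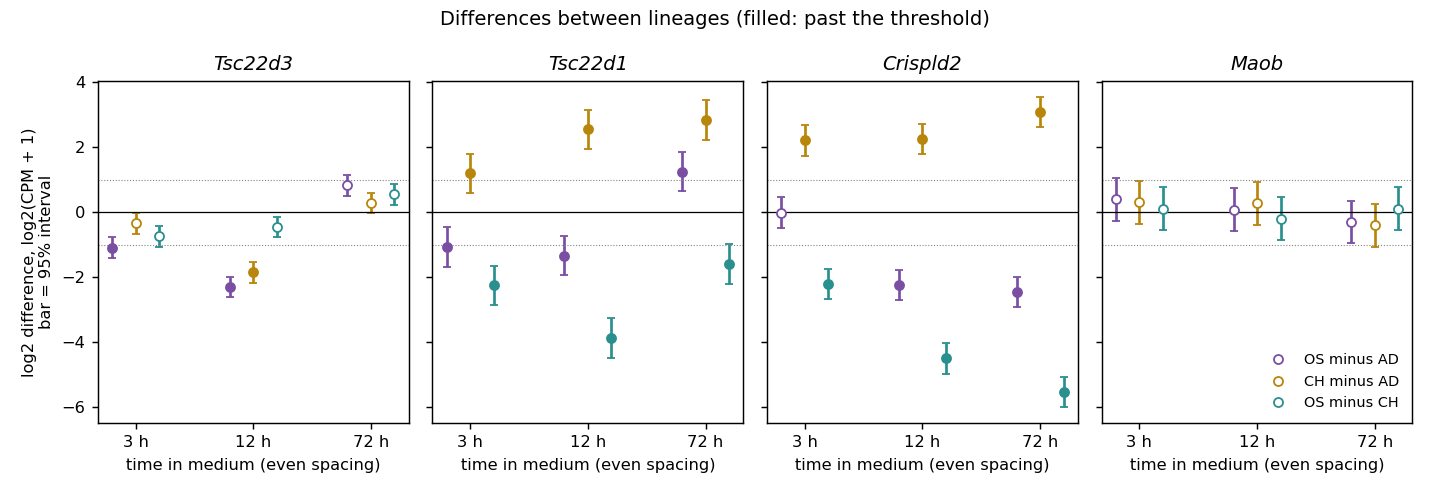
Log2 difference between lineages at each time for the 4 genes on the log2(CPM + 1) scale, with 95% intervals, filled points past the threshold and dotted lines at 1 and -1. Crispld2 has CH above AD by 2.20 to 3.09 and OS minus CH down to -5.53, Tsc22d1 is past the threshold in all pairs, and Maob in 0.

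Within each lineage the later time was compared with the one before, again with induced samples that were in view when the genes were chosen. From 3 to 12 h, 2 of the 4 genes were called in OS (7.82% of all genes), 2 in AD (12.9%) and 0 in CH (7.68%). From 12 to 72 h, 2 were called in OS (23.2%), 0 in AD (16%) and 2 in CH (13.2%). Median-ratio scaling moved the median of all genes by 0.34 for AD from 12 to 72 h and the share of calls that were higher there from 32.4% to 62.9%, and for CH over the same step from 60.4% to 74.3%. In OS it moved this share from 60.1% to 50.5% from 3 to 12 h and from 41.7% to 51.3% from 12 to 72 h, and edgeR moved it to 37.0% and 60.2%. For AD from 12 to 72 h the share was 59.8% with edgeR and 51.3% with quantile normalization, and for CH from 3 to 12 h it went from 22.7% to 34.4% and 38.2% with these.

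Tsc22d3 rose late in OS and CH and early in AD. From 12 to 72 h it rose 9.59-fold in OS (3.24, SE 0.15, adjusted p = 4.58e-17) and 4.81-fold in CH (2.24, adjusted p = 1e-12), and in AD the change was 0.11 (95% interval -0.21 to 0.42, adjusted p = 0.631). From 3 to 12 h it rose 2.24-fold in AD (1.16, adjusted p = 6.72e-07), with -0.06 in OS (adjusted p = 0.859) and -0.35 in CH (adjusted p = 0.11).

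Tsc22d1 fell from 3 to 12 h in OS (-1.60, SE 0.30, adjusted p = 0.000152) and in AD (-1.33, adjusted p = 0.000816), and differed by 0.02 in CH (95% interval -0.59 to 0.63). The fall in OS was not called in a fit on those 6 samples alone, and without OS 3 h replicate 3 it was -1.13, or 2.4-fold in place of 3.91-fold. From 12 to 72 h it rose 11.1-fold in OS (3.21, adjusted p = 2.22e-10), from a mean of 3.57 to 39.7 CPM. In CH the later samples were all above the earlier ones, but the difference of 0.92 (adjusted p = 0.0152) was under the size asked for, and reached 1.01 without CH 12 h replicate 2. In AD it was 0.62 (adjusted p = 0.0955).

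Crispld2 fell from 3 to 12 h in OS (-1.44, SE 0.23, adjusted p = 1.79e-05) and rose from 12 to 72 h in CH (1.45, adjusted p = 6.34e-06). From 3 to 12 h the differences were 0.84 in CH (adjusted p = 0.00664) and 0.80 in AD (adjusted p = 0.00725), under the size asked for. The AD value was 1.32 (adjusted p = 5.44e-09) without replicate 1 of AD 12 h. From 12 to 72 h the difference was 0.42 in OS (adjusted p = 0.136) and 0.61 in AD (adjusted p = 0.0299). Maob differed by -0.28 to 0.40 over the 6 steps, with adjusted p of 0.356 or more, and its 0.40 in AD from 12 to 72 h was -0.41 (adjusted p = 0.0137) without AD 72 h replicate 3.

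The nearest relative with values, Tsc22d2, another TSC22 family gene, was called in 0 of the 9 comparisons with CON. Its group means were 3.68 to 7.26 CPM and its log2 differences lay between -0.18 at CH 72 h and 0.65 at CH 3 h. Tsc22d4 was not analysed here. Of 12 genes listed as induced by TGF-beta, 3 could be tested. Tgfbi, a secreted matrix protein gene, rose in CH by 1.94, 3.40 and 6.62 at 3, 12 and 72 h and fell by 2.16 at AD 72 h, and it went to 1553 ± 65.4 CPM at CH 72 h (SD, n = 3) from 14.8 ± 1.32 in CON. Ctgf, a matricellular growth factor gene, rose in CH by 1.95, 1.16 and 1.07 and at OS 3 h by 1.12, and fell in AD (-1.54, -2.32 and -1.003 at the 3 times). Bambi, a decoy receptor gene, rose by 1.84 at CH 72 h and by 2.39 at AD 3 h, and fell by 1.004 at OS 12 h. All of these passed the threshold, though the falls of Ctgf at AD 72 h and of Bambi at OS 12 h only just did. Of the 3 genes, the number called higher in CH was 2, 2 and 3 at the 3 times, where 13.1%, 9.44% and 11.6% of all genes were called higher, and the median of the 3 was 1.94, 1.16 and 1.84, beside 0.21, 0.11 and 0.01 over all genes tested.

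Other genes of the glucocorticoid response were taken from 2 lists. Of 30 textbook targets only 4 could be tested, namely Sgk1, Nfkbia, Mt2A and Zfp36, while Fkbp5, Per1 and Dusp1, among others, were not analysed here. A further 29 targets were picked from the gene names with values, and 21 of them could be tested. Over the 3 lineages these 25 genes gave 75 comparisons with CON at each time. At 3 h, 12 of the 75 were called higher (16%, beside 12.4% over all genes tested) and 10 lower (13.3%, beside 5.99%). At 12 h, 14 were called higher (18.7%, beside 10.7%) and 12 lower (16%, beside 5.9%). At 72 h, 20 were called higher (26.7%, beside 8.34%) and 8 lower (10.7%, beside 6.91%). The share called higher at 3 h was thus near that of all genes, and nothing particular to the lists is read from these counts. The medians of the 4 textbook targets lay between -0.48 at OS 12 h and 1.09 at AD 72 h, beside 0.09 and -0.05 over all genes tested. Those of the 21 further genes lay between -0.09 at AD 12 h and 0.50 at CH 72 h, beside 0.15 and 0.01 over all genes tested. The lists as a whole thus held genes that rose and genes that fell in the same group.

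Among them, Mertk, a receptor kinase that helps phagocytes clear dying cells, rose in 8 of 9 comparisons with CON. Its mean was 9.50 ± 2.82 CPM in CON and reached 102 ± 49.0 at AD 72 h, 115 ± 12.1 at OS 72 h and 81.9 ± 3.43 at CH 72 h (SD, n = 3), with log2 differences of 3.23, 3.50 and 3.01. At OS 3 h it was 0.94 (adjusted p = 0.00447), under the size asked for. Orm1, the acute-phase plasma glycoprotein orosomucoid, also rose in 8 of 9, from 33.0 ± 2.52 CPM in CON to 241 ± 72.4 at AD 72 h and 262 ± 43.3 at CH 72 h, with 0.72 (adjusted p = 0.00397) at OS 72 h as the exception. Mt2A, a metallothionein that binds zinc and copper, rose at all 3 times in AD (2.45, 3.56 and 3.78), at OS 12 h and 72 h (1.54 and 2.81) and at CH 72 h (1.52), and was 0.59 at OS 3 h, -0.10 at CH 3 h and -0.30 at CH 12 h. Zfp36, whose protein speeds the decay of inflammatory mRNAs, fell at AD 3 h and 12 h (-1.32 and -1.10) and rose at AD 72 h and OS 72 h (1.58 and 1.26). Steap4, a metalloreductase gene, rose in AD by 1.63 at 12 h and 3.86 at 72 h, to 16.1 ± 1.99 CPM at AD 72 h, and was not called in the other 7 comparisons. Tgfbr3, the betaglycan co-receptor gene, rose at AD 12 h (1.41), AD 72 h (2.65) and OS 72 h (2.30), and fell at OS 3 h (-1.48) and at the 3 times in CH (-1.48, -2.74 and -3.53). Gadd45b, a stress-response gene, fell in all AD and OS groups (-1.05 to -2.20) and was called in 0 of the CH groups. Its relative Gadd45a fell in all CH groups (-1.28 to -2.39) and at OS 3 h and 12 h (-2.60 and -2.28), and rose at AD 3 h (1.12). Sgk1, a kinase gene, and Nfkbia, which encodes an inhibitor of NF-kappaB, were called in 0 of the 9 comparisons.

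**Figure D5:**
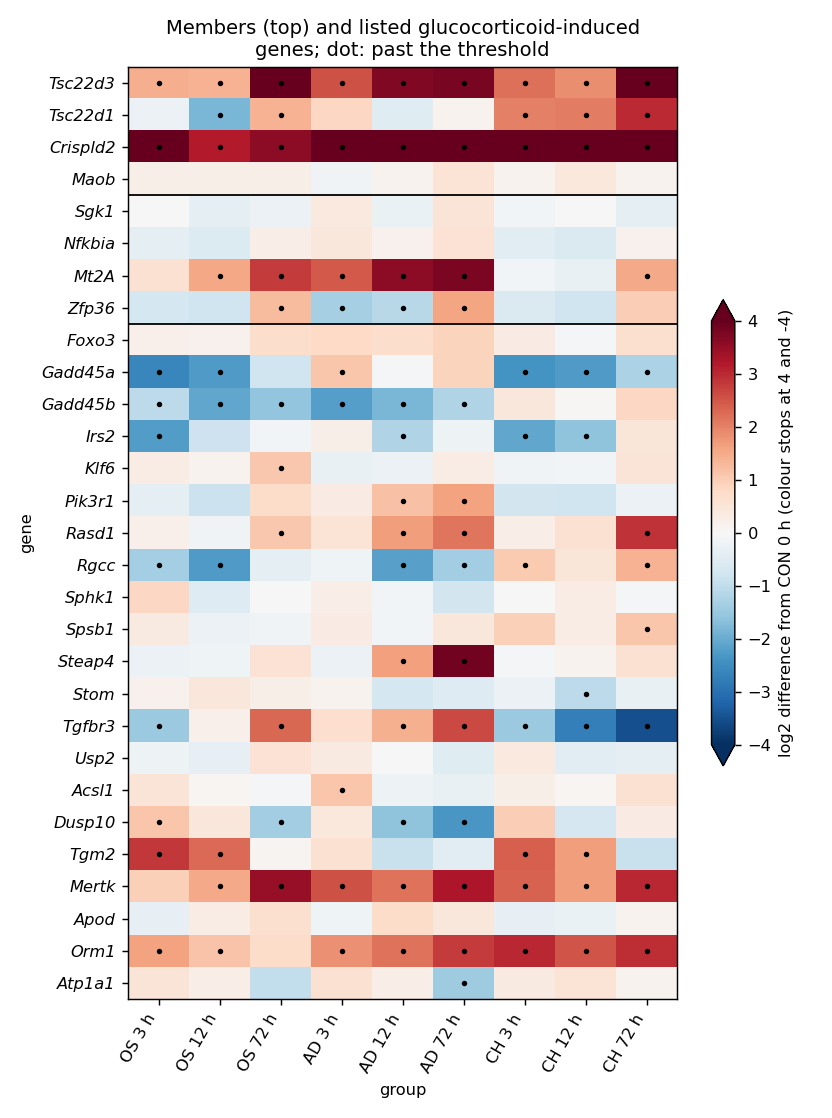
Log2 difference from CON 0 h on the log2(CPM + 1) scale, by colour, of the 4 genes (top rows), the 4 tested textbook glucocorticoid targets (middle) and the 21 further targets (bottom) in the 9 induced groups, with a dot for a call. Mertk and Orm1 carry a dot in 8 of 9 groups, as Tsc22d3 and Crispld2 do in 9, and other rows hold both colours.

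Of the genes that make or read the hormone signal, Hsd11b1, whose enzyme regenerates active glucocorticoid inside cells, fell in 8 of 9 comparisons, from -1.02 at AD 12 h to -2.58 at AD 72 h, and was -0.99 at OS 3 h. Its mean was 1169.8 CPM in CON and 194 CPM at AD 72 h. Fkbp4, a receptor co-chaperone gene, rose by 1.24 to 1.48 at 3 h in the 3 lineages, by 1.28 at AD 12 h and by 2.10 at OS 12 h. The coactivator Ncoa1, near the floor with group means of 0.101 to 1.13 CPM, was called in 0 of 9. The receptor gene Nr3c1 was not analysed here. Of 9 tested inflammatory genes that glucocorticoids are known to repress, the number called lower was 3, 4 and 7 in OS, 1, 3 and 5 in AD and 5, 5 and 7 in CH at 3, 12 and 72 h, where 4.88% to 9.08% of all genes were called lower. The number called higher was 3, 3 and 0 in OS, 4, 1 and 1 in AD and 0 at each time in CH, where 6.19% to 14.7% of all genes were called higher. Their medians were -2.40, -1.10 and -3.14 at OS, AD and CH 72 h, beside 0.08, -0.05 and 0.01 over all genes tested. Il6, the interleukin 6 gene, fell in all OS and CH groups (-3.86 to -4.92) and in AD at 12 h (-2.62) and 72 h (-2.32). The rises were those of the chemokine genes Cxcl1 and Cxcl10 at AD 3 h, OS 3 h and OS 12 h, of Cxcl10 at AD 12 h, of Cxcl2 at AD 3 h and OS 12 h, of the interleukin gene Il1b at AD 3 h and OS 3 h, and of the collagenase gene Mmp13 at AD 72 h (3.55), where its samples spread from 3.96 to 64.4 CPM. Cxcl10 had only 0 to 2 reads in CON and 7 to 14 at AD 3 h, AD 12 h and OS 3 h. In other groups Cxcl1 was called lower, at OS 72 h and all CH times. Cxcl2 was called lower at all CH times, OS 72 h and AD 72 h. Il1b was called lower at AD 12 h and at 72 h in OS, AD and CH.

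Among the other amine oxidation genes, Maoa, which encodes monoamine oxidase A, fell in CH at 12 h (-1.15) and 72 h (-2.19), to 77.2 ± 5.57 CPM at 72 h from 354 ± 21.7 in CON (SD, n = 3). Aoc1, a diamine oxidase gene, fell in 8 of 9 comparisons (-2.54 to -4.88), and was -0.36 (adjusted p = 0.305) at CH 72 h. Aldh9a1, an aldehyde dehydrogenase gene with low group means of 0.147 to 2.09 CPM, was called in 0 of the 9. Of the CAP superfamily, Pi15, a peptidase inhibitor gene, was the other tested gene besides Crispld2. It was listed with 0 reads in every CON library, and its AD means were 2.05 CPM at 12 h and 1.82 CPM at 72 h, both past the threshold, with samples from 0.439 to 3.33 CPM and from 0.475 to 3.01 CPM.

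The genes with the most similar pattern were found by Pearson's r over the 10 group means of log2(CPM + 1), among 1810 genes with a mean of at least 10 CPM. These r are descriptions, since all genes were read from the same libraries. For Tsc22d3 they were Mertk (0.932), AABR07045405.1 (0.903), Snai2 (0.876), Foxo3 (0.827) and Gem (0.821). For Crispld2 they were Orm1 (0.930), Creb3l1 (0.863), Epas1 (0.835), Usp22 (0.832) and Aldh1l2 (0.810). For Tsc22d1 they were Smim14 (0.925), AABR07035428.2 (0.819), Slc6a8 (0.813), Angptl7 (0.810) and Dap (0.809), and for Maob, with its narrow range, Klf10 (0.700), Cav2 (0.677), Bcat2 (0.646), Ace (0.639) and Plcg1 (0.626). Among the 4 genes themselves, r was 0.38 for Tsc22d3 with Tsc22d1, 0.53 for Tsc22d3 with Crispld2 and 0.65 for Tsc22d1 with Crispld2, and it was 0.35 or less for Maob with each of the others.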

How the data were processed

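RNA was sequenced from 30 samples of rat BMSCs, 3 in each of 10 groups, which were taken from the sample labels. The authors deposited 1 table of gene values per sample, in CPM, that is reads scaled to a fixed total over the whole library, although per the labels the tables are named for FPKM. Per the labels, Trimmomatic, HISAT2 and StringTie were used. The genome build is not given in the sources used here. The labels describe removal of ribosomal RNA and a strand-marking library, whereas the study's methods describe an mRNA kit, so which RNA was sequenced is not settled by the sources used here. Every one of the 10803 values per sample was a whole multiple of 1 read (100% within 0.02 of a read), so read counts were recovered. The reads listed made up 38.9% to 71.4% of each library, and genes outside the tables were not analysed here.

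Values of lines with the same gene name were summed, which left 9999 names, 729 of them on more than 1 line. The 4363 genes that reached 1 CPM in 3 or more samples were fitted with limma 3.58.1 on log2(CPM + 1) in 1 model of 10 groups with a trended variance, and p-values were adjusted by Benjamini and Hochberg over all genes of a comparison. The tests were 2-sided. They were also run on data made with known changes at OS 3 h and the same spread for all genes. Those data held no libraries that stood apart, so that check does not cover such libraries. Alternatives were a pseudocount of 0.1, no filter, median-ratio scaling, quantile normalization, a fit on the 6 samples compared, the replicate number as a block, leaving out each sample, and edgeR 4.0.16 on the recovered reads. Keeping shared names apart and leaving out AD 12 h replicate 1 with AD 72 h replicate 3 were chosen after seeing the data, as were all alternatives for the differences of changes between lineages. Replicates differed by more than sampling noise in all 30 pairs (chi-square per degree of freedom of 2.42 or more).

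The 4 genes and the gene lists were chosen with earlier results of these data known, and the list of 29 further glucocorticoid targets was picked from the gene names with values. Genes named are the 4 genes, the tested genes of the lists (in lists of over 10, first those with the largest called changes) and, for each of the 4, the 5 genes most like it.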

Additional observations from a re-analysis of the deposited data

Results flagged for a closer look

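The change between neighbouring times was compared between lineages in 1 model over all samples, with induced samples only. Those samples were also in view when the genes were chosen. Of the differences of changes, 11 were past the threshold. They are on the log2(CPM + 1) scale and come with limma adjusted p over all 4363 genes, of which 11.1% to 22.5% were past the threshold in the same tests. All adjusted p were 0.0192 or less.

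For Tsc22d3, the change from 3 to 12 h was smaller in OS than in AD (-1.22, SE 0.22, adjusted p = 0.00015) and smaller in CH than in AD (-1.51, adjusted p = 4.4e-06). From 12 to 72 h its change was larger in OS than in AD (3.13, adjusted p = 7.32e-12) and larger in CH than in AD (2.13, adjusted p = 5.49e-09).

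For Crispld2, which fell in OS from 3 to 12 h, that change was below the one in AD by -2.24 (SE 0.32, adjusted p = 6.81e-06) and below the one in CH by -2.28 (adjusted p = 2.38e-06). From 12 to 72 h the change in OS was below that in CH by -1.04 (adjusted p = 0.0131), a call lost under 6 alternatives (-0.95 to -0.99).

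For Tsc22d1, the change from 12 to 72 h was larger in OS than in AD (2.58, SE 0.42, adjusted p = 3.03e-05) and than in CH (2.29, adjusted p = 7.86e-05). From 3 to 12 h it was lower in OS than in CH (-1.63, adjusted p = 0.00452) and higher in CH than in AD (1.35, adjusted p = 0.0192), a call lost without AD 3 h replicate 3 (1.25). Maob gave no such difference, with adjusted p of 0.284 or more.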

How the results depend on the processing

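The 4 genes gave 23 calls over the 9 comparisons with CON, 20 over the 9 pairs of lineages and 8 over the 6 steps in time. Over the alternatives run on all samples these counts were 22 to 24, 19 to 20 and 7 to 12, and without each sample in turn they were 23, 18 to 20 and 8 to 9. No called value of the 4 genes in these 3 sets changed its sign under any alternative. Calls gained were Tsc22d1 in AD from 12 to 72 h (1.04 with median ratios, 1.17 with edgeR) and in CH over the same step (1.13, 1.05 with quantile normalization and 1.12 with edgeR), and Crispld2 in AD from 3 to 12 h (1.01 with edgeR) and from 12 to 72 h (1.06 with median ratios, 1.22 with quantile normalization). edgeR also called Maob in AD from 12 to 72 h (1.33). The cause was not tested. Of the counts over the glucocorticoid target lists, the 12 calls lower at 12 h became 19 with edgeR. For the single listed genes and markers against CON, 123 values lost their call over the alternatives, 149 gained one and 20392 did neither. With median ratios, 23 lost it and 20 gained it, so calls close to 1 in size depend on the processing. Of the 5 genes most like each, 4 were shared for Tsc22d3 and for Crispld2 over 30 samples and with median ratios, with 4 and 2 shared for Tsc22d1 and 0 and 1 for Maob.

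The 11 differences of changes between lineages gave 418 values over 38 alternatives, with 0 changes of sign and 7 lost calls, and 9 of the 11 kept the call throughout. Crispld2 in OS against CH from 12 to 72 h was -0.99 with quantile normalization and -0.97 with edgeR, and lost its call without OS 12 h replicate 3 (-0.96), OS 72 h replicate 2 (-0.98), CH 12 h replicate 3 (-0.96) or CH 72 h replicate 1 (-0.95). Tsc22d1 in CH against AD from 3 to 12 h lost its call without AD 3 h replicate 3 (1.25). Calls gained were Crispld2 in CH against AD from 12 to 72 h without AD 12 h replicate 1 (1.36), Tsc22d3 in OS against CH over that step with quantile normalization (1.16), a pseudocount of 0.1 and edgeR (1.06) and without 6 single samples, and Maob in CH against AD over that step with edgeR (-1.43).

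Replicate numbers did not pair the samples: over 135 pairs with the same number in different groups, deviations from the group means had a mean correlation of -0.01 (-0.23 to 0.16), and 3 pairs were over 0.1. With the replicate number as a block, the counts of calls were 23, 20 and 8, as without it, and no call of the 4 genes changed. With 3 samples a group and 13 to 33 reads for Tsc22d1 at OS 12 h or 15 to 20 for Crispld2 in CON, small differences were not detectable at this depth.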
